A study of Mus musculus with 4 samples.

Results

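The transcripts described here are 5 long non-coding RNA genes of the mouse embryonic cortex, out of 16449 genes in the count table. Gm3764, AW047730 and AI849053 lie side by side on chromosome 3, C130071C03Rik lies on chromosome 13 and E330013P04Rik on chromosome 19. Gm3764 and C130071C03Rik are host transcripts of miR-9 genes. The 5 genes were chosen by name because of their counts in the same comparison that is described below, so their differences between genotypes are given as values with no test. Of the 5, 4 passed the filter on low counts. AI849053 did not pass it, and its 4 counts in all do not show the fall that the choice of these genes implies.

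Dorsal and medial palliums, from which the neocortex and hippocampus form, were dissected from mouse embryos at embryonic stage E11.5 and profiled by Nanopore long-read sequencing of poly(A)-enriched RNA. Group WT comprised 2 libraries from embryos with floxed Tut1 alleles and no Cre, and group Tut1_KO comprised 2 libraries from Tut1 f/f;Emx1-Cre embryos, so both groups carried the floxed alleles. Cre was expressed from the Emx1 locus, which is active in progenitors of the dorsal telencephalon, and cells outside that lineage in the dissected tissue keep Tut1. TUT1 is the enzyme that adds uridines to the end of U6 snRNA, the small RNA of the spliceosome. Whether a library came from 1 embryo or from several was not stated, so p-values speak only for these libraries and not for embryos. With 37.5 prior degrees of freedom beside 2 residual ones, the edgeR test drew each gene's variance mostly from all genes.

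MicroRNAs are cut from longer host transcripts by Drosha and Dicer1 and then repress messenger RNAs that pair with bases 2 to 8 of the microRNA, its seed. miR-9 is made from 3 genes in the mouse and is abundant in progenitors and young neurons of the developing forebrain, where it is known for balancing progenitor renewal against differentiation. Its host transcripts are long non-coding RNAs that are spliced and carry poly(A) tails, so that libraries of this kind count the host and not the mature microRNA. No value below is a level of miR-9 itself.

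The mature sequences are shown because all 3 hosts yield the same microRNA, so that a change in any one host concerns the same seed. In RefSeq on build GRCm38.p6, the 5p and the 3p arm were each identical at the 3 loci, and the seed is in capitals.
miR-9-5p: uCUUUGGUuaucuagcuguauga
miR-9-3p: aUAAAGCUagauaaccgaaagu
No other mouse microRNA in the RefSeq table had the seed of miR-9-5p. The hairpins differ between loci in their loops and flanks, and the capitals mark both mature arms.
Mir9-1: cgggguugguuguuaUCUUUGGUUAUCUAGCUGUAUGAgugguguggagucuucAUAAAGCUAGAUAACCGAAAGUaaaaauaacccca
Mir9-2: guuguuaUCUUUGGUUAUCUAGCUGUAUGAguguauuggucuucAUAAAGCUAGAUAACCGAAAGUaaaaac
Mir9-3: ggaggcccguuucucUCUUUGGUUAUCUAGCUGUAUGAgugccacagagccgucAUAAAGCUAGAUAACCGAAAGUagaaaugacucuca
The Mir9-1 hairpin, at chr3:88215598-88215686 on the plus strand, has 89 bases and a stretch of 16 bases between the arms. The Mir9-2 hairpin, at chr13:83738814-83738885 on the plus strand, has 72 bases and 14 between the arms. The Mir9-3 hairpin, at chr7:79505264-79505353 on the plus strand, has 90 bases and 16 between the arms.

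Mir9-1 lies 8785 bases into Gm3764, and all 5 annotated Gm3764 transcripts that span it hold it in an intron. Mir9-2 lies 17433 bases into C130071C03Rik, where 1 of the 2 transcripts spanning it holds it in an exon and the other in an intron. The host of Mir9-3, Mir9-3hg, is not one of the 5 chosen genes. It was counted as a comparison, and its hairpin, 5238 bases from its start, is intronic in all 4 transcripts that span it.

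The libraries held 305642 to 397150 counts, and the median tested gene had 19 to 25 counts in a library. Of the 16449 genes, 5878 passed the filter and were tested with edgeR's quasi-likelihood test. At an adjusted p below 0.05, 2.06% of them were called, 1.4% as higher and 0.663% as lower in Tut1_KO, and 14.2% had an unadjusted p below 0.05. DESeq2, run as an alternative, left 4831 of the 5878 genes with no adjusted p through its own filter, so a count of 0 by that tool covers few genes. The Tut1 gene itself had 6 and 11 counts in WT, but 29 and 25 where the label reads Tut1 knockout (log2 fold change 1.71 ± 0.40 SE, adjusted p = 0.0113), a direction opposite to the label. The adjusted p was 0.200, 0.160 and 0.133 without Tut1_KO replicate 1, Tut1_KO replicate 2 and WT replicate 1. The floxed part is a single exon and the count covers the whole gene, so this row does not check the deletion. Xist was counted only in WT replicate 1, with 64 counts, and the Y-linked genes Ddx3y, Eif2s3y, Kdm5d and Uty only in the other 3 libraries, so sex differed within the WT group. Of 5 dorsal and medial pallium markers, Lhx2 had 348 and 272 counts in WT against 106 in each Tut1_KO library, Emx2 had 48 and 62 against 23 and 31, and Emx1 had 6 and 7 against 1 and 2. Pax6 had 137 and 119 against 132 and 93, and Lef1 had 12 and 15 against 14 and 17. Only Tut1_KO embryos carried Cre at the Emx1 locus, so an effect of that allele on the Emx1 count cannot be told apart.

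Gm3764 was the most abundant of the 5 transcripts and lay below its WT level in both Tut1_KO libraries. Positions of genes are from GENCODE M21 on GRCm38. Gm3764 (ENSMUSG00000097156, a lincRNA of 11 annotated transcripts at chr3:88206813-88229959, plus strand) had 216 and 259 counts in WT against 96 and 93 in Tut1_KO. Scaled to 1000000 counts per library with TMM factors (CPM), these were 654 and 723 against 255 and 323. Both Tut1_KO libraries lay 331 CPM or more below both WT libraries. The mean was 689 ± 48.9 CPM in WT and 289 ± 48.0 in Tut1_KO (SD, n = 2 each), so Tut1_KO retained 42.0% of the WT mean. The fitted log2 fold change was -1.26 ± 0.17 (SE), and it ran from -1.43 to -1.09 over the 14 alternative settings. In bulk tissue, fewer cells that express a gene and less of its RNA per cell cannot be told apart.

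C130071C03Rik, the Mir9-2 host, differed least of the 4 measurable transcripts. C130071C03Rik (ENSMUSG00000050334, a lincRNA at chr13:83721381-83884194, plus strand, spanning 162814 bases) had 88 and 81 counts in WT against 61 and 60 in Tut1_KO. These were 267 and 226 CPM against 162 and 208 CPM. The groups did not overlap, but the lower WT library and the higher Tut1_KO library were only 17.9 CPM apart, less than the SD of either group (28.5 and 32.7 CPM). The mean in Tut1_KO was 75.2% of that in WT, with a log2 fold change of -0.42 ± 0.22 that ran from -0.60 to -0.24 over the alternatives.

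Mir9-3hg, the Mir9-3 host that was outside the choice, was lower in Tut1_KO. Mir9-3hg (ENSMUSG00000097023, a lincRNA at chr7:79500026-79534403, plus strand) had 129 and 165 counts in WT against 91 and 50 in Tut1_KO. The means were 426 ± 49.6 CPM in WT and 208 ± 48.2 CPM in Tut1_KO (SD, n = 2 each), and the groups did not overlap. The log2 fold change was -1.02 ± 0.20 with an adjusted p of 0.00235. Mir9-3hg was named with earlier results of these data known, so this p is not independent support. Without Tut1_KO replicate 1 the adjusted p was 0.0602, and without Tut1_KO replicate 2 it was 0.148, so the call needs both of these libraries. The call stood in 11 of 13 settings, DESeq2 among them with an adjusted p of 0.0434.

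The 3 hosts together had 433 and 505 counts in WT against 248 and 203 in Tut1_KO. Their sum was 1361 ± 70.0 CPM in WT and 682 ± 32.5 CPM in Tut1_KO, or 50.1% of WT. Gm3764 made up 49.9% and 51.3% of the sum in WT and 38.7% and 45.8% in Tut1_KO. The share of C130071C03Rik was 20.3% and 16.0% in WT and 24.6% and 29.6% in Tut1_KO, while that of Mir9-3hg was 29.8% and 32.7% in WT and 36.7% and 24.6% in Tut1_KO. Shares of Gm3764 were thus lower and those of C130071C03Rik higher in both Tut1_KO libraries, and those of Mir9-3hg overlapped. Gm3764 and C130071C03Rik were chosen by these counts, so nothing is read from the sum or the shares.

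**Figure D1:**
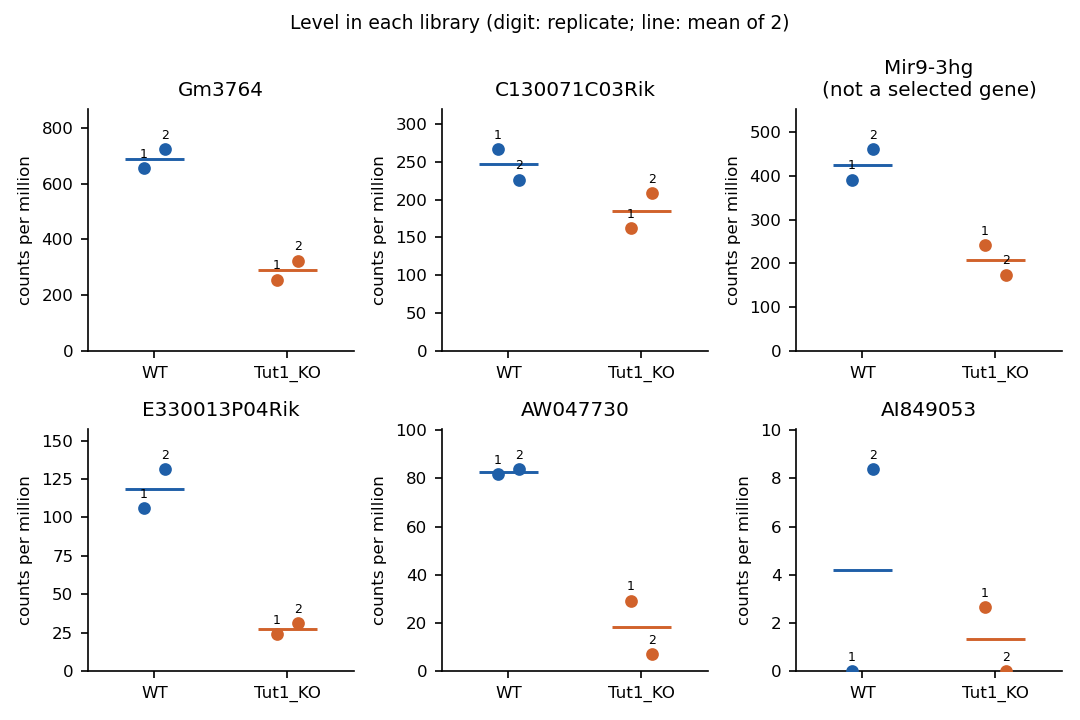
Level of the 5 chosen genes and of Mir9-3hg in CPM (vertical axes from 0, a scale for each gene), for the 2 WT and 2 Tut1_KO libraries. Each point is a library with its replicate number and each line the mean of 2; Gm3764 sits at 654 and 723 in WT and at 255 and 323 in Tut1_KO, and AI849053 never exceeds 3 counts.

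Upstream of Gm3764, AW047730 and AI849053 overlap on opposite strands. AW047730 (ENSMUSG00000097428, a processed transcript at chr3:88200623-88203481, plus strand) ends 3332 bases before Gm3764 starts, on the same strand. It had 27 and 30 counts in WT against 11 and 2 in Tut1_KO, or 81.8 and 83.8 CPM against 29.2 and 6.95 CPM. The Tut1_KO libraries thus differed from each other far more than the WT libraries did. The Tut1_KO mean was 21.9% of the WT mean and the log2 fold change was -2.07 ± 0.44. One library sets its size, since it was -3.51 without Tut1_KO replicate 1 and -1.49 without Tut1_KO replicate 2.

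AI849053 (ENSMUSG00000097280, a lincRNA at chr3:88199102-88204595, minus strand) had 0 and 3 counts in WT against 1 and 0 in Tut1_KO. Each value is at or under 3 counts, the limit that a count of 0 allows, so no fold is given and no difference was detectable at this depth. Whether counting used the strand of the reads was not stated, and reads of AW047730 and AI849053 may not be separable. Summed, the overlapping pair had 27 and 33 counts in WT against 12 and 2 in Tut1_KO, close to AW047730 alone. The 3 neighbours on chromosome 3 together had 776 ± 56.2 CPM in WT and 309 ± 30.4 CPM in Tut1_KO, 39.8% of WT, and most of this was Gm3764.

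E330013P04Rik hosts no annotated microRNA. E330013P04Rik (ENSMUSG00000053117, a lincRNA of 4 annotated transcripts at chr19:60144675-60162591, plus strand) had 35 and 47 counts in WT against 9 in each Tut1_KO library. These were 106 and 131 CPM in WT and 23.9 and 31.3 CPM in Tut1_KO, so both Tut1_KO libraries lay far below both WT libraries. The Tut1_KO mean was 23.3% of the WT mean and the log2 fold change was -2.12 ± 0.36, with a range of -2.30 to -1.92 over the alternatives.

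Both Tut1_KO libraries were below both WT libraries for all 4 tested members, beside 20.8% of all tested genes; since these values chose the genes, nothing is read from that count. Per kilobase of the longest annotated transcript, Gm3764 had 297 and 328 CPM per kb in WT, C130071C03Rik 74.3 and 63.0, E330013P04Rik 35.4 and 43.8, and AW047730 31.7 and 32.5. In Tut1_KO the order from Gm3764 (116 and 147 CPM per kb) through C130071C03Rik (45.2 and 58.1) stayed, while E330013P04Rik (7.98 and 10.4) and AW047730 (11.3 and 2.69) overlapped. In WT the gap between these transcripts was smaller than the difference between the E330013P04Rik libraries.

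The starts of the miR-9 hosts are shown as a description. Gm3764 and C130071C03Rik were chosen by these same counts, and C130071C03Rik differed little (-0.42 ± 0.22). Whether the hosts share a control was not tested. Each RefSeq window runs from 250 bases before to 50 bases after an annotated start on GRCm38.p6, and capitals mark the palindrome TGACGTCA, the cAMP response element. AW047730 and E330013P04Rik also had windows, and AI849053 had no entry.
Gm3764 at chr3:88214232-88214531, plus strand: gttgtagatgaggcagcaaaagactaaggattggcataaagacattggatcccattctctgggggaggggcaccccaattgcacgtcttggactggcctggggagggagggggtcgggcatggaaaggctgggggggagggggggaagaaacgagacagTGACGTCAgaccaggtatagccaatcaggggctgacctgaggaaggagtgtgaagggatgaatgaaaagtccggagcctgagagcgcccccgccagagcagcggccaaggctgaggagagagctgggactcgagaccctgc
Mir9-3hg at chr7:79499776-79500075, plus strand: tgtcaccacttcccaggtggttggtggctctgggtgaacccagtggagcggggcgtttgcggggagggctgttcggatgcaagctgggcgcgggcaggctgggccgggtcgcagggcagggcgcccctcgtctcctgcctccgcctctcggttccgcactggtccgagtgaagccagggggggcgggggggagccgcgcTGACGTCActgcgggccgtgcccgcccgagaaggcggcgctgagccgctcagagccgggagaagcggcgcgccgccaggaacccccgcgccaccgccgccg
C130071C03Rik at chr13:83721131-83721430, plus strand: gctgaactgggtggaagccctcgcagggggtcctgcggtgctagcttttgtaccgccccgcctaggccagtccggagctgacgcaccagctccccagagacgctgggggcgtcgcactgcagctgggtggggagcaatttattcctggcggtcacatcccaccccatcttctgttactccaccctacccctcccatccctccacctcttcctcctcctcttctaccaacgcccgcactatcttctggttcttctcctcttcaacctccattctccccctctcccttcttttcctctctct
The RefSeq start of Gm3764 is 1116 bases before Mir9-1 and inside the span of the annotated gene, not at its first base. That of AW047730, at chr3:88198274, lies before the annotated gene that was counted, which starts at 88200623. TGACGTCA began 91 bases before the start of Gm3764 and 51 bases before that of Mir9-3hg. It was not in the window of C130071C03Rik shown, in the 2 further windows of that gene, in the second window of Mir9-3hg, or in those of AW047730 and E330013P04Rik. Of 32851 mouse windows, 1.79% held it. It was noticed among 6 motifs after the sequences had been read, so the match is a description. The other 5, searched on both strands, do not contain one another. TATAAA, held by 13.6% of all windows, was in none of these windows. The same was so of TAATTA (5.29%) and of CACGTG (7.15%). CCAAT, in 37.4% of all windows, occurred 4 times at Gm3764 and 1 time each in the second Mir9-3hg window, the AW047730 window and the 2 further C130071C03Rik windows. GGGCGG, in 35.7%, occurred 2 times in the first Mir9-3hg window and 1 time each in its second window and the C130071C03Rik window shown.

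Beside the members, 1160 long non-coding RNA genes were in the table, 231 of them with no count in any library, and 120 passed the filter. Of these 120, 1 rose and 2 fell in Tut1_KO, or 2.5% called, close to the share of all tested genes. Estimates were higher in 53 and lower in 67, with a median log2 fold change of -0.10 beside -0.01 over all tested genes. Dlx1as, the antisense partner of the ventral forebrain gene Dlx1, had no count in WT and 31 and 19 in Tut1_KO (adjusted p = 1.52e-06). Its call was lost without Tut1_KO replicate 1 (0.0602), and its reads may not be separable from those of Dlx1. Lockd, a transcript beside the cell cycle inhibitor gene Cdkn1b, had 399 and 278 counts in WT against 223 and 163 in Tut1_KO (log2 fold change -0.77 ± 0.16, adjusted p = 0.00494). Its adjusted p was 0.242, 0.209 and 0.422 without Tut1_KO replicate 1, Tut1_KO replicate 2 and WT replicate 1, and its estimate was -0.43 without WT replicate 1. The other called gene was Mir9-3hg, so a miR-9 host was 1 of the 2 that fell.

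Among the uncalled, the 5 of highest count were Gm10076, Cct6a, Gas5, 1810058I24Rik and Gm42047. Gm42047 had 320 and 82 counts in WT against 364 and 185 in Tut1_KO (0.45 ± 0.27); without WT replicate 1 it was called at 1.81 (adjusted p = 1.64e-09) and without WT replicate 2 it was -0.27. Cct6a is known as a chaperonin gene, although the annotation types it as a processed transcript. Gas5, a snoRNA host, had 466 and 513 counts in WT against 462 and 343 in Tut1_KO (log2 fold change -0.23 ± 0.13). Pantr1, a lncRNA of neural progenitors, had 172 and 135 against 169 and 147 (0.09 ± 0.18), and Malat1, an abundant nuclear RNA, 82 and 148 against 94 and 89 (-0.26 ± 0.21). Miat had 50 and 66 against 43 and 58 counts, with an estimate of -0.12 ± 0.26. Estimates for Sox2ot, which spans the stem cell gene Sox2, and for Rmst were 0.26 ± 0.25 and -0.54 ± 0.26, with adjusted p of 0.717 and 0.322. Meg3, an imprinted microRNA host, had 24 and 53 counts in WT against 71 and 50 in Tut1_KO (0.70 ± 0.27, adjusted p = 0.190), and without WT replicate 2 it was called at 1.31 (0.0252), against 0.29 without WT replicate 1. Mir124a-1hg had 0 counts in WT against 1 in each Tut1_KO library.

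Beside the chosen genes, calls among microRNA hosts went in both directions. Of 359 tested genes that contain a microRNA gene on the same strand, 8 rose and 2, Mir9-3hg and Dtnb, fell, or 2.79% beside 2.06% of all tested genes, and the median log2 fold change was -0.02. Only 20 tested hosts were typed as non-coding, among them Zswim6, which is known as a coding gene, and Mir9-3hg was the only one of them called. Mir124-2hg, which hosts a gene of the neuronal miR-124, had 12 and 17 counts in WT against 22 and 30 in Tut1_KO (0.91 ± 0.37, adjusted p = 0.234). The imprinted hosts H19 (0.96 ± 0.32) and Rian (0.16 ± 0.36) and Mir99ahg (-0.07 ± 0.23) were not called either.

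The coding hosts that rose were Igf2, Ttc28, Klf7, Zeb2, Csf1r, Ptprd, Cttnbp2 and Dohh, and Dtnb fell. Igf2, an imprinted growth factor gene, had 41 and 63 counts in WT against 180 and 52 in Tut1_KO, and its estimate of 1.16 was 0.26 without Tut1_KO replicate 1. Zeb2, a transcription factor of neuronal differentiation, had 26 and 30 counts in WT against 58 and 49 in Tut1_KO (0.99 ± 0.27, adjusted p = 0.0401). Klf7, a factor of axon growth, had 35 and 37 against 89 and 48 (0.96 ± 0.26, adjusted p = 0.0335). Csf1r, the microglial receptor for CSF1, had 16 and 20 against 58 and 34. Dtnb, a dystrobrevin gene, had 25 and 15 against 6 and 2 (-2.24 ± 0.52, adjusted p = 0.0108). Zeb2 and Klf7 lost their calls without any 1 of the 4 libraries (adjusted p of 0.0735 to 0.522), and Dtnb without each library other than WT replicate 2 (0.200 to 0.319). The number of called hosts was 0 without Tut1_KO replicate 1, 1 without Tut1_KO replicate 2 and 5 without WT replicate 1, and 1 with DESeq2, whose filter gave no adjusted p for 7 of the 10. The 5 uncalled hosts of highest count, Gm4149, Oaz1, Srrm2, Prrc2c and Ncl, had log2 fold changes of -0.16 to -0.05.

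Among the tested neighbours within 500 kb of the members, none was called lower with all libraries. Within 500 kb of Gm3764 and its 2 partners, 13 genes were tested and none was called by edgeR, by limma-voom or by DESeq2, which left 11 of them with no adjusted p, and none had an unadjusted p below 0.05. Nes, the progenitor intermediate filament gene 226 kb away, had 103 and 110 counts in WT against 111 and 89 in Tut1_KO (-0.04 ± 0.19). The estimates for Cct3, Mex3a and Mrpl24 were -0.19 ± 0.23, 0.07 ± 0.24 and 0.30 ± 0.25. With 2.06% of all tested genes called, a count of 0 among 13 is near the background and says nothing particular about this region.

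Beside C130071C03Rik, Mef2c rose. Mef2c, a transcription factor gene of neurons and microglia 54.3 kb before C130071C03Rik, had 16 and 19 counts in WT against 43 and 36 in Tut1_KO (1.22 ± 0.31, adjusted p = 0.0260). The adjusted p was 0.248 and 0.210 without Tut1_KO replicates 1 and 2, and 0.133 and 0.0631 without WT replicates 1 and 2, so the call needs all 4 libraries, and the filter of DESeq2 left it with no adjusted p. Gm33366, inside C130071C03Rik on the opposite strand, had 30 and 35 counts in WT against 18 and 21 in Tut1_KO (-0.67 ± 0.32, adjusted p = 0.334). Its reads may not be separable from those of C130071C03Rik. Tmem161b on the far side was not called (-0.16 ± 0.39).

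Beside E330013P04Rik, 3 genes were tested, none was called by edgeR, limma-voom or DESeq2, which left 2 of them with no adjusted p, and 1 had an unadjusted p below 0.05. Fam204a, 36.0 kb away, had 58 and 165 counts in WT against 84 and 51 in Tut1_KO, and in CPM both Tut1_KO libraries lay between the WT libraries (-0.67 ± 0.26, adjusted p = 0.195). Without WT replicate 1 it was called at -1.20 with an adjusted p of 0.000876, and without WT replicate 2 it was 0.19. Around Mir9-3hg, 7 genes were tested, none was called by edgeR or limma-voom, DESeq2 gave none of them an adjusted p, and none had an unadjusted p below 0.05. Over all tested genes, edgeR called 2.06% and gave 14.2% an unadjusted p below 0.05. Beside those shares, counts among 3 and 7 genes say nothing particular about these regions.

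**Figure D2:**
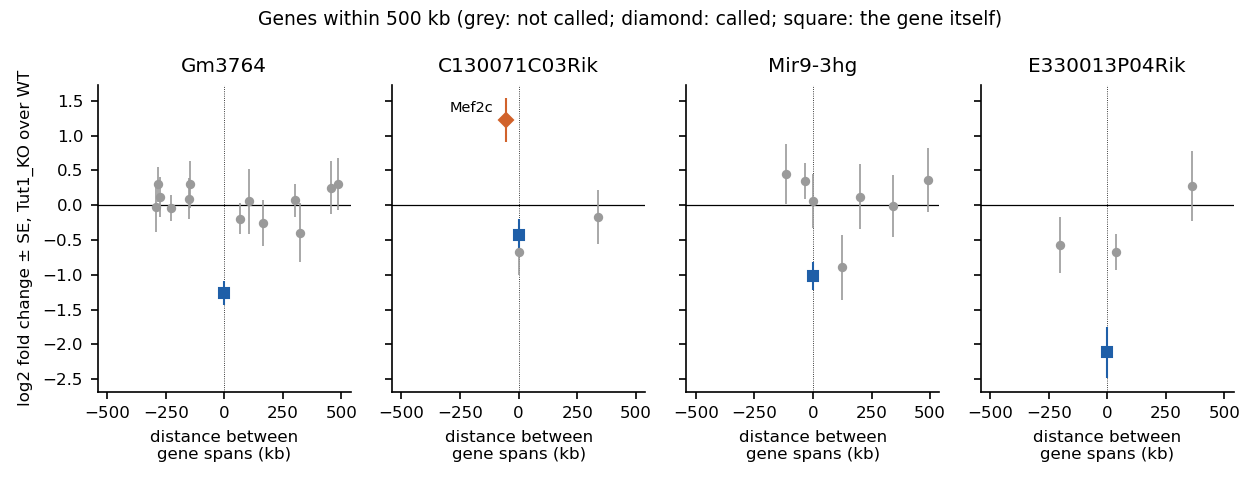
Log2 fold change of Tut1_KO over WT with SE (vertical axis) of the tested genes within 500 kb of Gm3764, C130071C03Rik, Mir9-3hg and E330013P04Rik, against the distance between gene spans in kb, negative before the gene. Squares at 0 are the gene itself; Mef2c, at -54.3 kb and 1.22, is the only neighbour called.

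Genes listed as targets of miR-9 from general knowledge were 15, of which 10 were tested and none was called by edgeR, beside 2.06% of all tested genes. An unadjusted p below 0.05 was found for 2 of them, beside 14.2% of all tested genes, limma-voom called 1, and DESeq2 called none of the 10 and left 6 with no adjusted p. Map1b, a microtubule protein of axons, had 323 and 382 counts in WT against 497 and 422 in Tut1_KO (0.44 ± 0.13, adjusted p = 0.0602). Stmn1, which destabilises microtubules, had 114 and 103 against 166 and 155 (0.62 ± 0.18, adjusted p = 0.0576). Both genes are also abundant in young neurons. With library totals as the only scaling both were called, at adjusted p of 0.0242 and 0.0331. Pax6, the progenitor factor, had 137 and 119 against 132 and 93 (-0.14 ± 0.19). Estimates were higher for 5 and lower for 5 of the 10, with a median of 0.07. Nr2e1, Onecut2, Sirt1 and Gsx2 were in the table at too few counts to test. Of the 10 tested targets, 9 had no 8-base site of the kind counted next in the 3′ UTR read here, Map1b and Stmn1 among them, and Foxp1 had 1.

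Sites for the seed were counted in the 3′ UTRs of all coding genes, a step added after the values had been seen. Of 58797 coding transcripts read, 81.3% had a stop codon after the annotated coding part, so some 3′ UTR limits may be wrong. The 8-base match ACCAAAGA, which pairs with the miR-9-5p seed and ends in A, was in the 3′ UTR of the longest transcript of 561 genes, and 252 of these were tested. Of the 252, 5 rose and 1 fell, or 2.38%, beside 2.00% of the 4989 tested genes without the site. The median log2 fold change was 0.05 with the site and -0.01 without it, and 142 of 252 estimates were above 0 beside 2441 of 4989. The genes that rose were Zeb2, Ppfia2, Mef2c, Myh9 and Ccng1, and Cbx5 fell. Ppfia2, a synaptic scaffold gene with 2 sites, had 16 and 13 counts in WT against 42 and 44 in Tut1_KO (1.62 log2, adjusted p = 0.00309). Ccng1, a p53-responsive gene, had 3 in each WT library and 19 and 15 in Tut1_KO (2.51 log2, adjusted p = 0.00728). DESeq2 called none of the 252, but left 215 of them, and 5 of these 6, with no adjusted p. None of the 6 stayed called without Tut1_KO replicate 1 (adjusted p of 0.0829 to 0.387) or without Tut1_KO replicate 2 (0.135 to 0.258), and of these genes Ppfia2 and Ccng1 alone stayed called without either WT replicate.

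The machinery that makes and uses microRNAs was measured through 19 listed genes, of which 17 were in the table and 14 were tested. None was called by edgeR, limma-voom or DESeq2, which left 6 with no adjusted p, and 2 had an unadjusted p below 0.05, both near the shares of 2.06% and 14.2% over all tested genes. Dicer1, which cuts the hairpin loop, had 112 and 131 counts in WT against 126 and 106 in Tut1_KO (-0.01 ± 0.18). Drosha, which releases the hairpin from the host, had 34 and 29 against 33 in each Tut1_KO library (0.12 ± 0.29). Ddx5 and Ddx17, its helicase partners, had estimates of -0.13 ± 0.15 and -0.07 ± 0.18. Ago2, an effector protein that binds mature microRNAs, had 31 and 39 counts against 14 and 21 (-0.93 ± 0.34, adjusted p = 0.151), with -0.48 without Tut1_KO replicate 1 and -1.44 without Tut1_KO replicate 2. Ran, which serves export of the hairpin, had 174 and 173 against 135 and 111 (-0.44 ± 0.17, adjusted p = 0.194). Dgcr8, Zswim8 and Lin28b had too few counts to test.

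**Figure D3:**
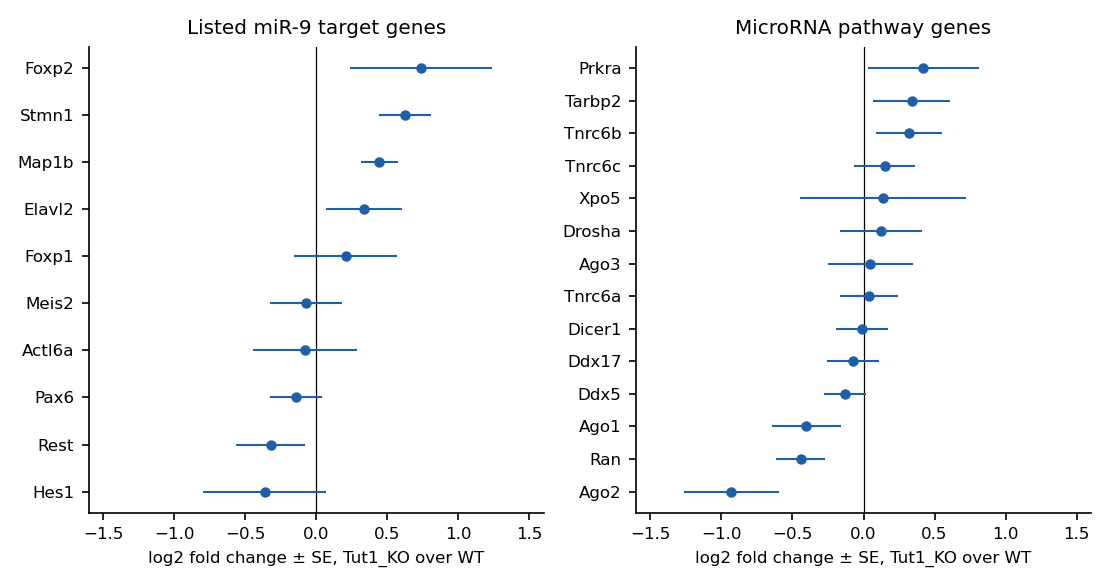
Log2 fold change of Tut1_KO over WT with SE (horizontal axes) of the 10 tested genes of the miR-9 target list (left) and the 14 of the microRNA pathway list (right). Map1b (0.44) and Stmn1 (0.62) lie above 0 by more than 3 SE and Ago2 (-0.93, or -0.48 without Tut1_KO replicate 1) is the lowest with all libraries, and no gene in either panel passed an adjusted p of 0.05.

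Markers of cell types moved with the same comparison, and their part in the levels above was not tested. Over all tested genes, 2.06% were called and 14.2% had an unadjusted p below 0.05 by edgeR. The summed level of the 5 dorsal and medial pallium markers was 1669 and 1327 CPM in WT and 734 and 865 CPM in Tut1_KO, and 1 of 4 tested, Lhx2, fell. That of the 6 proliferation markers was 3974 and 3394 CPM against 2506 and 2782 CPM, and Mki67 and Cenpf fell. The 10 neural stem and progenitor markers summed to 1196 and 1249 CPM against 1129 and 1157 CPM. Of 8 tested, 0 were called by edgeR, limma-voom or DESeq2, which left 5 with no adjusted p. An unadjusted p below 0.05 was found for 0 of the 8. Among so few genes, both counts are near the shares over all tested genes and say nothing particular about progenitors. The 12 markers of intermediate progenitors and neurons summed to 1557 and 1489 CPM against 2413 and 2237 CPM, and Mapt and Dcx, of 9 tested, rose. Microglial markers summed to 93.9 and 95.0 CPM against 359 and 292 CPM, and Csf1r, Aif1 and Cx3cr1, the 3 tested of 6, rose, although C1qa, C1qb and C1qc had 0 to 5 counts. Mesenchyme markers summed to 87.8 and 204 CPM against 385 and 261 CPM, with Col1a2 higher (log2 fold change 2.12, adjusted p = 0.00742). Ventral forebrain markers summed to 15.2 and 72.6 CPM against 181 and 97.3 CPM, with Dlx1 higher (2.59, adjusted p = 0.00494). Its 0 and 8 counts in WT do not fix that size, which was 7.57 without WT replicate 2 and 1.66 without WT replicate 1. Endothelial markers summed to 39.4 and 55.9 CPM against 93.0 and 86.8 CPM, and the 1 tested, Pecam1, was not called. Blood markers overlapped in sum, at 794 and 1103 CPM against 1260 and 861 CPM, while Hbb-bh1 fell (-1.80, adjusted p = 0.0279) and Hba-x had an estimate of 1.07 (adjusted p = 0.0563). The estimate for Hbb-bh1 was -0.92 without WT replicate 2 and -3.06 without Tut1_KO replicate 2. It was also closer to 0 than with all libraries without Tut1_KO replicate 1 (adjusted p = 0.630). Of the markers named here as called, Mapt alone stayed called without Tut1_KO replicate 1 (adjusted p = 0.0295), where Lhx2 had 0.0539. Without Tut1_KO replicate 2, Mki67, Cenpf, Dcx and Csf1r lost their calls (0.0616 to 0.202), as did Dlx1, Col1a2 and Hbb-bh1 (0.0735 to 0.0899). Without WT replicate 1 this was so of Mki67, Cenpf, Csf1r, Dlx1 and Col1a2 (0.0574 to 0.388), and without WT replicate 2 of Cenpf (0.0741) and Hbb-bh1 (0.565). DESeq2 called Lhx2 and Mapt and did not call Mki67 (0.122), Cenpf (0.0900) or Dcx (0.110), and its filter left the other called markers with no adjusted p. No listed marker that was in the table was at 0 in all 4 libraries.

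The genes with the profile most like the mean of the 4 tested members over the 4 libraries were sought among 3197 tested genes with a mean count of at least 20. Likeness was the root mean square difference between profiles of log2 CPM centred on their own means, and it is a description over 4 libraries. The 5 closest were Add3 (0.172), Rnaseh2a (0.187), Ttyh1 (0.194), Mir9-3hg (0.233) and Cdca3 (0.237). Add3, a cytoskeletal adducin, had 31 and 39 counts in WT against 18 and 9 in Tut1_KO. Ttyh1, a membrane protein of neural progenitors, had 40 and 59 against 21 and 18, and Rnaseh2a, a subunit of a nuclease that removes ribonucleotides from DNA, 40 and 37 against 19 and 14. Cdca3, a regulator of mitotic entry, had 42 and 39 against 24 and 14.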

How the data were processed

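The Nanopore libraries were of poly(A)-enriched RNA, and the authors aligned reads with minimap2 to the Ensembl mouse reference transcriptome and used FLAIR. The deposited table gives raw counts per gene, and the labels name build GRCm38. How isoforms, reads with several matches and strand were handled is not given in the sources used here. Identifiers were matched to GENCODE M21 on GRCm38 (99.9% of 16449), and sequences came from RefSeq tables on GRCm38.p6.

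Counts were tested across all genes with edgeR 4.0.16 in R 4.3.3 (filterByExpr with a minimum count of 10, TMM, glmQLFTest, two-sided), with Benjamini-Hochberg adjustment over 5878 genes and calls at an adjusted p below 0.05. DESeq2 1.42.0, limma-voom 3.58.1, other filters and scalings, a replicate block and leaving out each library were alternatives, and the procedure was tested on simulated data. Library totals of 305642 to 397150 limit precision for low genes, and a limit of 3 counts covers counting error only.

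The 5 genes and all lists were chosen with earlier results of these data known. Named were the 5 genes, Tut1 and the miR-9 loci, a fixed set of lncRNAs, called genes of each list (up to 10 per direction) and the most abundant uncalled ones (3 or 5 per list), and the 5 closest profiles. The 3′ UTR sites (3′ UTRs of at least 100 bases) and promoter motifs were added after values were seen. Markers, other hosts, other neighbours and genes with sites were named beyond this rule after their values were seen. One gene of the marker and target lists is not reported here.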

Additional observations from a re-analysis of the deposited data

How the results depend on the processing

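The direction held under every alternative run for the 4 tested members and for each called lncRNA, host, neighbour and site-bearing gene. Of the genes not called with all libraries, the log2 fold change of Gm42047 ran from -0.27 without WT replicate 2 to 1.81 without WT replicate 1, and that of Fam204a from 0.19 to -1.20. Leaving out 1 library at a time, the called lncRNA genes numbered 0 to 6 (3 with all libraries), microRNA hosts 0 to 10 (10), miR-9 targets 0 to 0, pathway genes 0 to 0 and neighbours 0 to 1 (1), and the median log2 fold change of the 4 tested members ran from -1.72 to -1.46 (-1.67). Without WT replicate 1 the neighbour called was Fam204a in place of Mef2c. With DESeq2, 2 lncRNA genes, 1 host and 0 neighbours were called, and its filter left 4831 of the 5878 tested genes with no adjusted p, Dlx1as, Mef2c and 7 of the 10 hosts among them. Library totals as the only scaling gave 2 called miR-9 targets, and limma-voom 1. The causes were not tested. The deviations of same-numbered libraries had a correlation of -0.06, a single value since 2 libraries a group deviate as mirror images, and no label says that the numbers pair the samples; with a replicate block, 4 hosts, 3 lncRNA genes and 0 neighbours were called. Neighbours within 250 kb or 1000 kb, or with those of Mir9-3hg added (chosen after seeing the data), gave 1 call each. At 9 to 47 and 2 to 30 counts, E330013P04Rik and AW047730 rest on few reads, and AI849053 could not be measured.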
